A study of Rattus norvegicus with 12 samples.

Results

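The 37 genes described here encode lysosomal enzymes, lysosomal membrane proteins and 2 regulators of the lysosome, followed in the rat kidney after ischemia-reperfusion injury (IRI). They were chosen by function from a named list, with earlier results of these data known. They were matched to the arrays by gene name, and all 37 had a probe and were among the 18509 genes tested. In the files cathepsin L carries the older symbol Ctsl1, Npc1 the symbol Cdig2, and Sgsh a placeholder name tied to a predicted transcript. The list holds 8 cysteine cathepsins and legumain, 4 other proteases, 7 glycosidases, 4 sulfatases and phosphatases, 6 lipid hydrolases and lipid handling proteins, 6 membrane proteins and 2 regulators.

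Left kidneys came from female rats of F344, an inbred strain, labelled as 10 weeks old. In 2 groups the blood supply of the left kidney had been stopped and restored, with the animals killed 3 days (IRI day 3, n = 4) or 7 days (IRI day 7, n = 4) later. The sham group (n = 4) was sham operated and killed after 7 days, so the day 3 kidneys have no sham of their own day. The labels give neither the length of ischemia nor the state of the right kidney, and no other treatment. They number the 4 samples of a group as replicates without saying that each is a separate animal, so the p-values measure the spread between these samples. Total RNA of the kidney was hybridised to 1 single-colour array per sample. In such pooled tissue, fewer cells of a type and less RNA per cell cannot be told apart.

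The lysosome is the acidic organelle in which proteins, glycans and lipids delivered by endocytosis, phagocytosis and autophagy are broken down. Most of its enzymes carry a mannose 6-phosphate tag that takes them from the Golgi to the lysosome, and a proton pump keeps the lumen acid. In the kidney the proximal tubule is rich in lysosomes, which digest the filtered protein it takes up, and macrophages are another cell type with many lysosomes. The transcription factor TFEB raises lysosomal genes when it enters the nucleus, by binding promoter motifs built around the letters CACGTG.

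These letters were looked for in the RefSeq promoter windows of the members, each from 250 bases before to 50 bases after the start of the gene on the rat assembly GRCr8. They read the same on both strands. Of the 31 members in that table, 7 (22.6%) held CACGTG, against 7.08% of the 27457 genes in the table (6.42% of its 33469 windows). The longer letters TCACGTGA, which contain the shorter motif, stood in 3 of the 31 members (9.68%), namely Ctsd, Lamp1 and Mcoln1, and in 0.896% of all genes (0.777% of windows). The stretches are shown because they carry the letters of the TFEB motif in the members whose signal is described further on. Each is written in the direction of its gene in lower case, with CACGTG in capitals. They lie at chr16:83075084-83075253 (Lamp1, minus strand), chr12:6358198-6358257 (Mcoln1, plus strand), chr1:206968822-206968881 (Ctsd, minus strand), chr10:105028265-105028324 (Gaa, plus strand), chr8:122963598-122963657 (Glb1, plus strand), chr10:105112015-105112074 (Sgsh, minus strand) and chr7:1921929-1921988 (Cd63, plus strand).
Lamp1: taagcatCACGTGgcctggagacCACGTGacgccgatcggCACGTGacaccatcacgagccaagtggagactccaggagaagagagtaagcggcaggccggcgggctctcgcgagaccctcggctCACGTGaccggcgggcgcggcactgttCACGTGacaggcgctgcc
Mcoln1: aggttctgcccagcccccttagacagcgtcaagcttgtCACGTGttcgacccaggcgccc
Ctsd: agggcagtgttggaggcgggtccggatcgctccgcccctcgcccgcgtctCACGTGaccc
Gaa: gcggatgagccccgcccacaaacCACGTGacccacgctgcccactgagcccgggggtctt
Glb1: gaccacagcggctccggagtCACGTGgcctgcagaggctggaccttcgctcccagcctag
Sgsh: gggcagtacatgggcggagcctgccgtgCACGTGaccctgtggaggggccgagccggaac
Cd63: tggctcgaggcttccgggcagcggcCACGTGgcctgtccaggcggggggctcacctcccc
Lamp1 held 5 matches, at 183, 167, 150, 65 and 38 bases before the start. Ctsd held 1 more match 157 bases before the start and Mcoln1 1 more at base 5 after it, both outside the printed stretches. The TCACGTGA of Mcoln1 is at this match after the start, not in its printed stretch. A match of letters describes the window only, and binding was not measured.

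The arrays were alike within a group, the lowest correlation across the tested genes being 0.967 for day 3 arrays, 0.950 for day 7 and 0.942 for sham. The unscaled 75th percentile of the signal differed, at 714 ± 34.5 intensity units at day 3, 502 ± 60.9 at day 7 and 328 ± 72.6 in sham (SD, n = 4 each), with the lowest value, 225, on sham replicate 3. Each array was therefore scaled to its own 75th percentile, and every value below is a log2 signal relative to that percentile. This scaling matters for the members: the median log2 fold change of all tested genes at day 3 was -0.13 with it and 0.15 with each array divided by its total signal.

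At day 3 the list split, with 17 of 37 members higher and 7 lower than in sham (limma, Benjamini-Hochberg adjusted p below 0.05 over all tested genes). Of all tested genes 24.2% were called higher and 33.1% lower, so the share of members called higher, 45.9%, was above that of all genes and the share called lower, 18.9%, below it. Their median log2 fold change was 0.29, against -0.13 for all genes. Counted in either direction, 57.3% of all tested genes were called. In 17 members every day 3 array lay above every sham array and in 7 every one lay below, against 22.2% and 29.5% of all tested genes. A change of at least 2-fold was called in 8 members upward and 2 downward (12.7% and 19.9% of all genes). Ctsk and Ctsz, among the 8, entered the test only through the injured groups. Their probes were well above background on 1 and 3 of 4 sham arrays. The count of falls depended on the scaling, at 2 with total scaling, 2 with the authors' deposited table and 4 with quantile normalization. It also rested on few arrays: it was 3 without sham replicate 1, without sham replicate 4 or without day 3 replicate 1, 2 or 4, each left out alone.

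At day 7 fewer members stood apart from sham, 12 higher and 3 lower, while 8.21% of all tested genes were called higher, 10.6% lower and 18.8% in either direction. Their median log2 fold change was 0.45, against -0.07 for all genes, and 5 members had a called rise and 1 a called fall of at least 2-fold (3.64% and 3.72% of all genes). Ctsk, among the 5, entered the test only through the injured groups. Day 7 and sham were fully separated in 11 members upward and 4 downward (9.04% and 12.6% of all genes). Between the days, 9 members were higher and 1 lower at day 7 than at day 3, with backgrounds of 18.0% and 13.4%, and the median was -0.02 for members and 0.05 for all genes. Both days were fully separated in 6 members upward and 6 downward (18.6% and 17.5% of all genes). No member was called between the days with a change of 2-fold or more, 0 upward and 0 downward (7.52% and 5.21% of all genes), although at an unadjusted p below 0.05 limma gave 9 higher and 6 lower members. The count of 9 was 4 without day 3 replicate 2, without day 3 replicate 4 or without day 7 replicate 4. The single fall became 2 without sham replicate 3 or 4 and 4 without day 7 replicate 3. The comparisons with sham share the 4 sham arrays, so they are not independent of each other.

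**Figure D1:**
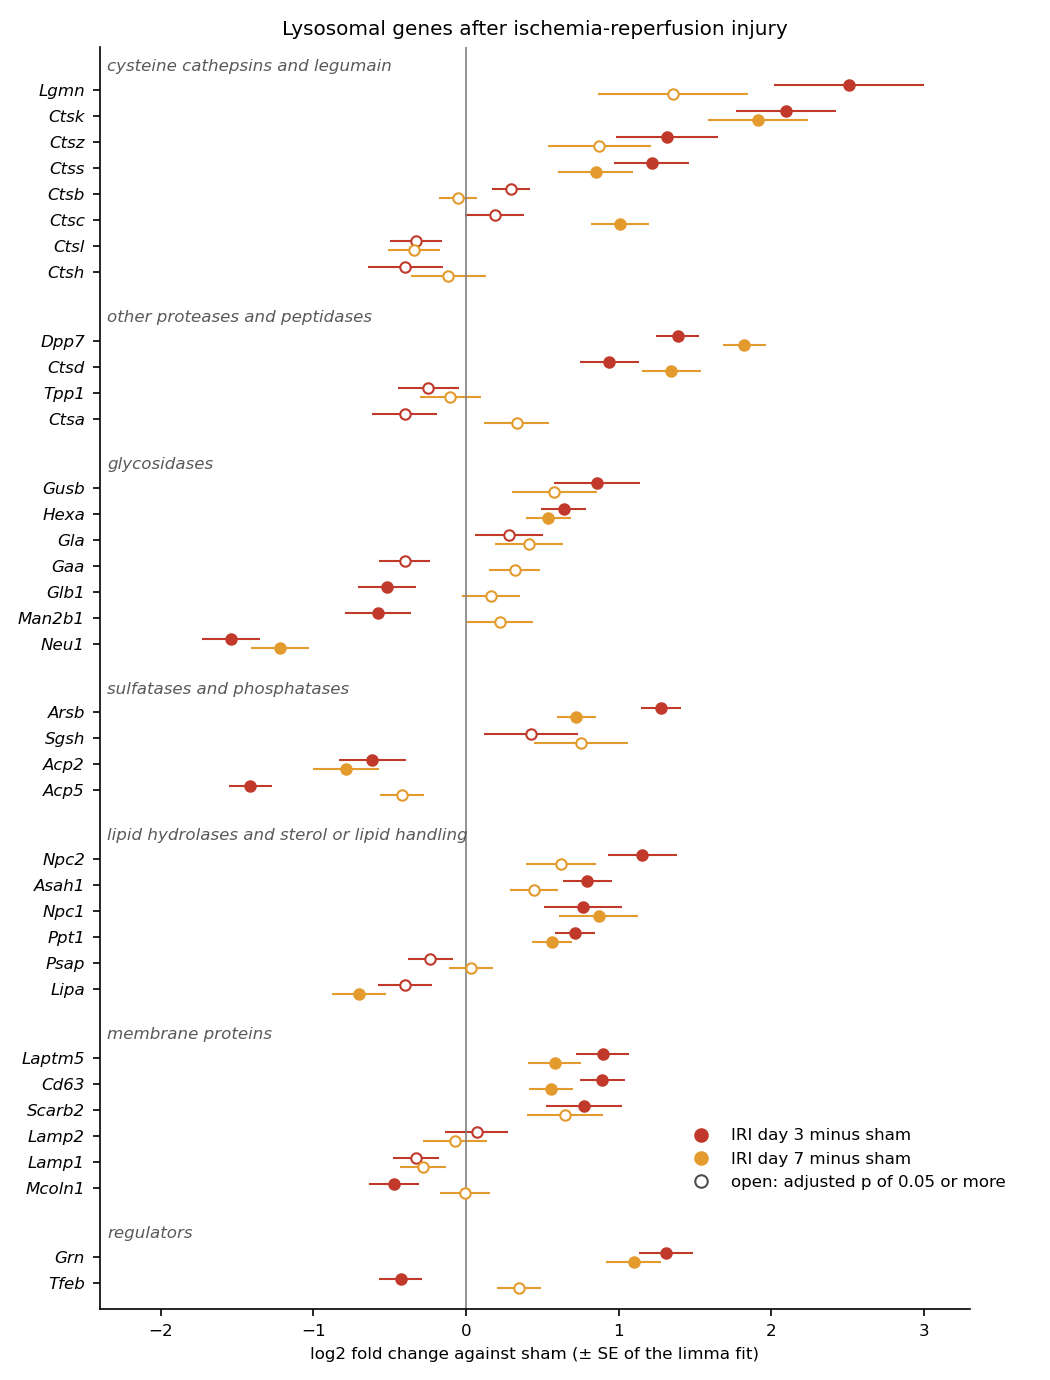
Log2 fold change of each of the 37 lysosomal genes against sham at IRI day 3 (red) and IRI day 7 (orange), grouped by role. Bars are the standard error of the limma fit, filled points have an adjusted p below 0.05, and the points run from Neu1 at -1.54 to Lgmn at 2.51, both at day 3.

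Put together, 11 members were higher than sham at both days: Ctsk, Ctss, Ctsd, Dpp7, Hexa, Arsb, Npc1, Ppt1, Cd63, Laptm5 and Grn. Of these, Ctsk entered the test only through the injured groups, as its probe was well above background on 1 of 4 sham arrays. Another 6 were called higher at day 3 alone (Ctsz, Lgmn, Gusb, Asah1, Npc2 and Scarb2), but none of these 6 passed the test between day 7 and day 3, so a difference between the days was not shown for them. With 1 array left out, Lgmn was lower at day 7 than at day 3 without day 7 replicate 3 (adjusted p = 0.046) or sham replicate 4 (0.019), and Npc2 without day 7 replicate 3 (0.035). Lower at both days were 2 members, Neu1 and Acp2. A group of 5 was lower than sham at day 3 and then higher at day 7 than at day 3: Glb1, Man2b1, Acp5, Mcoln1 and Tfeb. Of these day 3 falls only that of Acp5 held in all 24 alternatives. The fall of Glb1 was kept in 13, of Man2b1 in 10, of Mcoln1 in 15 and of Tfeb in 17. The step of Mcoln1 between the days was kept in 6. Ctsc was higher at day 7 than in either other group, Lipa was lower at day 7 than in sham, and Ctsa and Gaa differed only between the days. The remaining 9 (Ctsb, Ctsh, Ctsl, Tpp1, Gla, Sgsh, Psap, Lamp1 and Lamp2) were called in no comparison. How many of all tested genes share each of these patterns was not counted. The pattern counts therefore describe the members only and cannot be set against a background.

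Of the cysteine proteases, 4 of 8 rose at day 3, with folds of 2.32 to 5.69, and 3 of 8 were called higher at day 7. Of the 4, Ctsk and Ctsz entered the test only through the injured groups, and both changed sign at day 3 with normexp background correction. The shares of all tested genes called higher were 24.2% at day 3 and 8.21% at day 7. The member with the largest fold change was Lgmn, legumain, the asparaginyl endopeptidase that also processes other cathepsins (probe at chr6:126669400-126669708, rn4, minus strand). Lgmn signal was 2.16, 1.94, 2.21 and 1.77 at day 3, 0.68, 0.85, 1.75 and 0.20 at day 7, and 0.09, 0.53, -0.42 and -2.15 in sham. All day 3 arrays lay above all sham arrays, the day 7 arrays lay between and overlapped with sham, and sham replicate 4 was far below the other sham arrays. The log2 fold change was 2.51 ± 0.49 (SE) at day 3 (5.69-fold, adjusted p = 0.0011) and 1.36 ± 0.49 at day 7 (adjusted p = 0.073). Over all alternatives the day 3 value ran from 1.95 to 2.85. The day 7 call came up without sham replicate 2 (adjusted p = 0.037).

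Ctsk, cathepsin K, a collagen-degrading protease best known from osteoclasts, was dim throughout (chr2:190405601-190405660, rn4). Its signal was -2.68, -2.39, -1.92 and -2.49 at day 3, -2.17, -2.39, -2.89 and -2.76 at day 7, and -3.47, -4.51, -5.26 and -4.62 in sham. The probe was well above background on all arrays of both injured groups and on 1 of 4 sham arrays, so the sham level is poorly measured and the size of the change with it. The fitted log2 fold change was 2.10 ± 0.33 at day 3 (adjusted p = 0.00024) and 1.91 ± 0.33 at day 7 (adjusted p = 0.0031), and the injured groups did not overlap with sham. With normexp background correction the value was -0.15 at day 3 (adjusted p = 0.83) and 0.0095 at day 7 (adjusted p = 0.99), and without spots below their local background it was 0.38 (adjusted p = 0.045) and 0.46 (adjusted p = 0.052), so the day 7 call was lost under both. Ctsz, cathepsin X, was also dim, well above background on 3 of 4 sham arrays, with log2 fold changes of 1.32 (adjusted p = 0.0056) at day 3 and 0.87 (adjusted p = 0.087) at day 7, and -0.25 at day 3 (adjusted p = 0.66) with normexp. Normexp without spots below their local background also ended the day 3 call of Ctsz (adjusted p = 0.13). The day 7 value of Ctsz was 1.17 (adjusted p = 0.026) without sham replicate 3.

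Ctss, cathepsin S, which trims the invariant chain of MHC class II in antigen-presenting cells, was well above background on all 12 arrays and rose 2.32-fold at day 3 (log2 1.22 ± 0.24, adjusted p = 0.0013) and 1.80-fold at day 7 (0.85 ± 0.24, adjusted p = 0.032). Its probe neighbours that of Ctsk on chromosome 2 (chr2:190466474-190466533, rn4). The day 7 call was kept in 17 of 24 alternatives. It was lost, among others, without day 7 replicate 1, 2 or 3 (adjusted p 0.060 to 0.083). Without sham replicate 3 the day 7 rise was 0.56 (adjusted p = 0.029).

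Ctsc was called higher at day 7 and not at day 3. It encodes dipeptidyl peptidase I, which activates the granule serine proteases of leukocytes (chr1:144661035-144661094, rn4). Ctsc signal was 2.32, 1.94, 2.48 and 1.61 at day 3, 3.07, 2.78, 3.11 and 2.68 at day 7, and 1.95, 1.99, 1.84 and 1.82 in sham. Every day 7 array stood above every array of both other groups, while day 3 overlapped with sham. The log2 fold change was 0.19 ± 0.19 at day 3 (adjusted p = 0.42), 1.01 ± 0.19 at day 7 (2.02-fold, adjusted p = 0.0051) and 0.82 ± 0.19 between day 7 and day 3 (adjusted p = 0.0092).

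Ctsb, Ctsl and Ctsh were called in no comparison. Ctsb, a main endopeptidase of the lysosome, had a log2 fold change of 0.29 at day 3 (95% interval 0.02 to 0.57, adjusted p = 0.062) and -0.05 at day 7, and its day 3 arrays all lay above the sham arrays. The Ctsb day 3 value passed the threshold with quantile normalization (adjusted p = 0.039), total scaling (0.0031), the authors' deposited table (0.023) and normexp without spots below background (0.017). Ctsb was called lower at day 7 than at day 3 without day 7 replicate 3 (adjusted p = 0.044) or sham replicate 3 (0.042). Ctsl had -0.33 (95% interval -0.70 to 0.05) and -0.34 (-0.71 to 0.03), and its day 3 value passed without sham replicate 3 (adjusted p = 0.027). Ctsh, an aminopeptidase, with the lowest day 3 value of this group (chr8:94986941-94989247, rn4), had signal of 2.95, 3.03, 3.26 and 2.51 at day 3, 2.77, 3.10, 3.12 and 3.87 at day 7, and 3.04, 3.38, 3.19 and 3.71 in sham. These ranges overlap between all groups, and its log2 fold change was -0.40 (95% interval -0.93 to 0.14) at day 3 and -0.12 (-0.65 to 0.42) at day 7.

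Among the other proteases, Dpp7 and Ctsd rose at both days and kept both calls in all 24 alternatives, while Tpp1 and Ctsa were not called against sham. Dpp7, a dipeptidyl peptidase that cleaves after proline (chr3:3516089-3516148, rn4), had signal of 2.23, 2.02, 1.99 and 1.87 at day 3, 2.37, 2.24, 2.67 and 2.57 at day 7, and 0.72, 0.46, 0.72 and 0.67 in sham. The 3 groups did not overlap, and sham was lowest and day 7 highest. Its rise was 2.62-fold at day 3 (log2 1.39 ± 0.14, adjusted p = 1.9e-05) and 3.54-fold at day 7 (1.82 ± 0.14, adjusted p = 7.2e-05). The step of 0.44 between day 7 and day 3 (adjusted p = 0.036) was lost in 11 of 24 alternatives, with an adjusted p of 0.054 to 0.10 when one of day 3 replicates 2, 3 and 4 or day 7 replicates 1, 3 and 4 was left out.

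Ctsd, cathepsin D, the main aspartic protease of the lysosome (chr1:202619669-202619727, rn4), had signal of 4.08, 3.60, 3.35 and 4.05 at day 3, 4.40, 4.07, 4.40 and 3.85 at day 7, and 2.84, 2.66, 2.90 and 2.94 in sham. Both injured groups lay wholly above sham and overlapped with each other. The rise was 1.92-fold at day 3 (log2 0.94 ± 0.19, adjusted p = 0.0015) and 2.54-fold at day 7 (1.34 ± 0.19, adjusted p = 0.0013). The printed promoter stretch of Ctsd carries TCACGTGA around the CACGTG that lies 10 bases before the start, and that of Lamp1 carries TCACGTGA as well.

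Ctsa encodes protective protein/cathepsin A, which holds the sialidase Neu1 and the galactosidase Glb1 in one complex and keeps them stable (chr3:155871808-155871867, rn4). Ctsa signal was 3.99, 3.86, 4.65 and 3.65 at day 3, 4.61, 4.87, 4.63 and 4.98 at day 7, and 4.28, 4.41, 4.27 and 4.78 in sham. Day 3 replicate 3 stood above the other day 3 arrays and inside the range of the other groups. The log2 fold change was -0.40 ± 0.21 at day 3 (adjusted p = 0.13, and 0.013 without day 3 replicate 3) and 0.33 ± 0.21 at day 7 (adjusted p = 0.30). Ctsa was 1.66-fold higher at day 7 than at day 3 (0.73 ± 0.21, adjusted p = 0.023). That call was lost when day 3 replicate 1, 2 or 4 or day 7 replicate 2 or 4 was left out (adjusted p 0.052 to 0.073). Tpp1, a tripeptidyl peptidase, had a day 3 value of -0.25 (95% interval -0.68 to 0.19) and a day 7 value of -0.10 (-0.54 to 0.33).

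The glycosidases, which take sugars off glycoproteins and glycolipids, had 2 of 7 members called higher and 3 lower at day 3, shares of 28.6% and 42.9% that are near those of all tested genes (24.2% and 33.1%). Neu1, the lysosomal sialidase, fell furthest of all 37 members (chr20:3999866-3999925, rn4). Neu1 signal was -0.18, -0.44, 0.02 and -0.12 at day 3, -0.25, 0.10, 0.29 and 0.42 at day 7, and 1.64, 1.51, 0.99 and 1.31 in sham. All injured arrays lay below all sham arrays. The fall was 2.91-fold at day 3 (log2 -1.54 ± 0.19, adjusted p = 5.4e-05) and 2.33-fold at day 7 (-1.22 ± 0.19, adjusted p = 0.0021). The day 3 call held in all 24 alternatives, and the day 7 call was lost with normexp alone.

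Of its partners in that complex, Ctsa was not called against sham. Glb1, beta-galactosidase, had a log2 fold change of -0.52 ± 0.19 at day 3 (adjusted p = 0.034) and 0.16 ± 0.19 at day 7 (adjusted p = 0.59). A second Glb1 probe gave -0.60 at day 3 (p adjusted over all tested probes = 0.025). Between day 7 and day 3 that probe gave 0.55 (p adjusted over all tested probes = 0.057), which did not pass. Man2b1, lysosomal alpha-mannosidase, had -0.58 ± 0.22 at day 3 (adjusted p = 0.037) and 0.22 ± 0.22 at day 7. Both were higher at day 7 than at day 3, Glb1 by 0.68 (adjusted p = 0.020) and Man2b1 by 0.80 (adjusted p = 0.017). Their day 3 falls depended on the scaling: with total scaling Glb1 had -0.24 (adjusted p = 0.30) and Man2b1 -0.30 (adjusted p = 0.23), and with the authors' deposited table -0.42 (adjusted p = 0.085) and -0.48 (adjusted p = 0.077). Leaving out sham replicate 1 or day 3 replicate 1, 2 or 4 also ended both day 3 calls, as did sham replicate 4 for Glb1 and sham replicate 2 or 3 for Man2b1 (adjusted p 0.059 to 0.12). Within slide 1, Man2b1 pointed the other way at day 3. The rises between the days were lost without day 3 replicate 2 or 4 or day 7 replicate 4 for both, and without day 7 replicate 2 for Glb1 (adjusted p 0.051 to 0.063).

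Gusb and Hexa went up. Gusb, beta-glucuronidase (chr12:27757212-27757271, rn4), had signal of 0.87, 0.22, 0.18 and 0.22 at day 3, 0.40, 0.36, 0.16 and -0.55 at day 7, and -0.27, -0.04, -0.47 and -1.16 in sham. Day 3 lay above sham throughout, with replicate 1 well above the other day 3 arrays. The day 3 rise was 1.81-fold (log2 0.86 ± 0.28, adjusted p = 0.020), with an adjusted p of 0.057 without sham replicate 4 and 0.064 without day 3 replicate 1. A second, dimmer Gusb probe gave 0.94 ± 0.45 at day 3 (p adjusted over probes = 0.093).

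Hexa, the alpha subunit of beta-hexosaminidase, whose loss causes ganglioside storage (chr8:63385458-63386057, rn4), had signal of 0.96, 0.85, 1.18 and 0.74 at day 3, 0.59, 0.87, 1.11 and 0.75 at day 7, and 0.31, 0.34, 0.19 and 0.32 in sham. The sham arrays were close together and below all injured arrays. The rise was 1.56-fold at day 3 (0.64 ± 0.15, adjusted p = 0.0030) and 1.45-fold at day 7 (0.54 ± 0.15, adjusted p = 0.026). The day 7 call was kept in 16 of 24 alternatives. It was lost, among others, without sham replicate 1 or 3 or day 7 replicate 2 or 3 (adjusted p 0.053 to 0.077). Gaa, which degrades glycogen, had -0.40 at day 3 (adjusted p = 0.058, and 0.025 to 0.049 without sham replicate 3 or day 3 replicate 3) and 0.32 at day 7, and was 0.72 higher at day 7 than at day 3 (adjusted p = 0.0093). Gla, alpha-galactosidase A, had 0.28 (95% interval -0.20 to 0.77) and 0.42 (-0.07 to 0.90).

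Of the sulfatases and acid phosphatases, 1 of 4 was called higher and 2 lower at day 3. The shares of all tested genes were 24.2% and 33.1%. Arsb, arylsulfatase B, which removes sulfate from dermatan and chondroitin sulfate, was the member with the tightest day 3 arrays (chr2:24223762-24223821, rn4). Arsb signal was 1.85, 1.92, 1.97 and 2.01 at day 3, 1.12, 1.36, 1.56 and 1.49 at day 7, and 0.73, 0.68, 0.58 and 0.64 in sham. The 3 groups did not overlap, and day 3 was highest. The rise was 2.42-fold at day 3 (1.28 ± 0.13, adjusted p = 1.8e-05) and 1.65-fold at day 7 (0.72 ± 0.13, adjusted p = 0.0039). Arsb was the only member called lower at day 7 than at day 3 (-0.55 ± 0.13, adjusted p = 0.0092), and normexp alone ended that call.

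Acp5, tartrate-resistant acid phosphatase, ran the other way; the files give no position for its probe. Its signal was -0.34, -0.30, 0.08 and -0.39 at day 3, 0.68, 0.77, 0.58 and 0.97 at day 7, and 1.12, 1.12, 1.26 and 1.19 in sham. Again the 3 groups did not overlap, with day 3 lowest. The fall was 2.66-fold at day 3 (-1.41 ± 0.14, adjusted p = 1.8e-05), the day 7 value was -0.42 ± 0.14 (adjusted p = 0.060), and Acp5 was 1.99-fold higher at day 7 than at day 3 (0.99 ± 0.14, adjusted p = 0.0011). Without day 3 replicate 3 or day 7 replicate 4 the day 7 value passed against sham (adjusted p 0.041 and 0.042).

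Acp2, the lysosomal acid phosphatase, had a log2 fold change of -0.61 ± 0.22 at day 3 (adjusted p = 0.030) and -0.79 ± 0.22 at day 7 (adjusted p = 0.028), with no overlap with sham at either day. Total scaling gave -0.34 (adjusted p = 0.20) and -0.55 (adjusted p = 0.092). Single arrays also ended these calls: at day 3 sham replicate 1 or 4 or day 3 replicate 1, 2 or 4 (adjusted p 0.061 to 0.084), and at day 7 sham replicate 1 or 4 or day 7 replicate 1 or 3 (adjusted p 0.053 to 0.073). Sgsh, which removes sulfate from heparan sulfate, was dim (well above background on 3 of 4 sham arrays) and had 0.43 (95% interval -0.24 to 1.1) and 0.75 (0.08 to 1.42, adjusted p = 0.11).

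**Figure D2:**
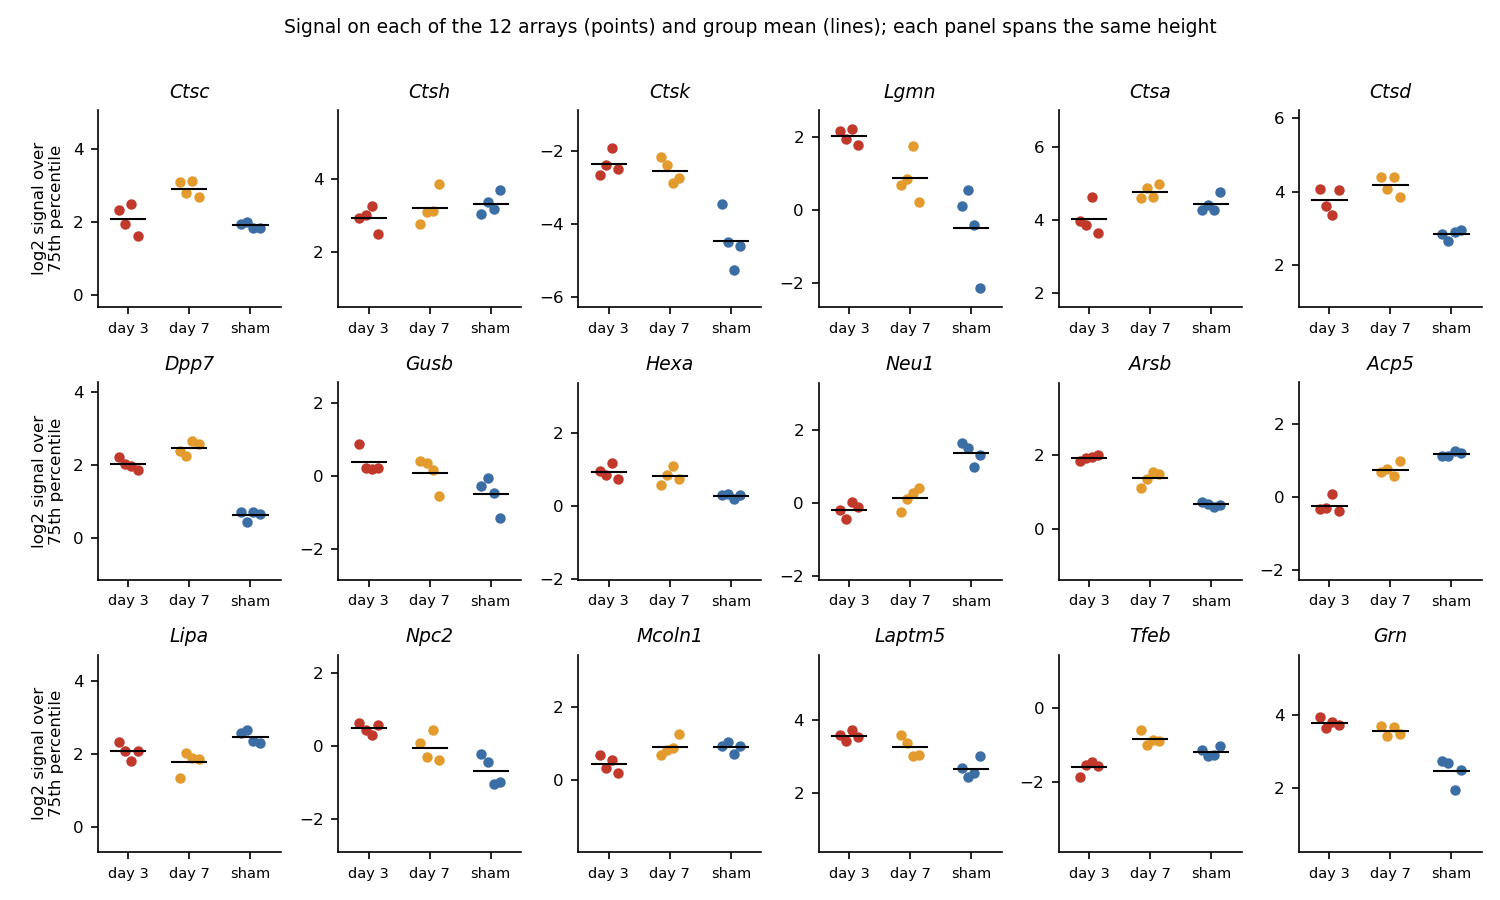
Log2 signal relative to the array's 75th percentile (y axis, each panel spanning the same height) on every array of IRI day 3 (red), IRI day 7 (orange) and sham (blue), for 18 of the 37 genes; black lines are group means. Dpp7, Arsb and Acp5 show 3 groups that do not overlap, Neu1 shows both injured groups below sham, and Ctsc stands apart at day 7.

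In the group that handles lipids, 4 of 6 members rose at day 3, and 2 were called higher and 1 lower at day 7. Among all tested genes 24.2% were called higher at day 3, and 8.21% higher and 10.6% lower at day 7. Npc2, the soluble protein that hands cholesterol to Npc1 for export from the lysosome, had the largest day 3 value when each gene is read from its brightest probe (chr6:108794590-108798310, rn4). Npc2 signal was 0.62, 0.44, 0.30 and 0.57 at day 3, 0.06, -0.31, 0.42 and -0.40 at day 7, and -0.23, -0.44, -1.05 and -0.99 in sham. Day 3 was above all sham arrays, and day 7 overlapped with both other groups. The rise was 2.23-fold at day 3 (1.16 ± 0.23, adjusted p = 0.0011), and the day 7 value was 0.62 ± 0.23 (adjusted p = 0.076, and 0.048 without sham replicate 1).

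Npc1, its membrane partner, had 0.77 ± 0.26 at day 3 (adjusted p = 0.023) and 0.87 ± 0.26 at day 7 (adjusted p = 0.036). A second Npc1 probe was well above background on all 4 day 3 arrays, 1 day 7 array and no sham array, and its day 3 signal was at least 1.31-fold higher than in sham. The mean over both probes gave 1.38 at day 3 (adjusted p = 0.0048) and 0.90 at day 7 (adjusted p = 0.084). It takes in the sham signal of the second probe, which was not above background. The size of these means is therefore poorly measured, and they are no further support for a rise. With normexp the values were 0.047 at day 3 (adjusted p = 0.91) and 0.17 at day 7 (adjusted p = 0.77), and without spots below their local background 0.35 (adjusted p = 0.086) and 0.50 (adjusted p = 0.054), so both calls were lost under both. Slide or scan batch as a block also ended the day 7 call, which was kept in 11 of 24 alternatives. The day 3 call was lost without sham replicate 3 or day 3 replicate 1 (adjusted p 0.051 to 0.067), and the day 7 call without sham replicate 3 or 4, day 3 replicate 1 or day 7 replicate 1, 3 or 4 (adjusted p 0.051 to 0.093).

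Asah1, acid ceramidase, had 0.80 (adjusted p = 0.0013) at day 3 and 0.45 (adjusted p = 0.072) at day 7, the second passing without day 7 replicate 4 (adjusted p = 0.041). Ppt1, palmitoyl-protein thioesterase, had 0.72 (adjusted p = 0.00072) and 0.57 (adjusted p = 0.013). Psap, the precursor of the saposins that help sphingolipid hydrolases, had -0.23 (95% interval -0.55 to 0.08) and 0.03 (-0.28 to 0.35).

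Lipa, lysosomal acid lipase, which frees cholesterol and fatty acids from endocytosed lipid, was the member of this group called lower (chr1:238467200-238467259, rn4). Lipa signal was 2.31, 2.08, 1.80 and 2.08 at day 3, 1.34, 2.0, 1.88 and 1.85 at day 7, and 2.57, 2.65, 2.35 and 2.30 in sham. Day 7 lay below all sham arrays, and one day 3 array reached into the sham range. The fall was 1.62-fold at day 7 (-0.70 ± 0.17, adjusted p = 0.018), and -0.46 (adjusted p = 0.077) with total scaling. The day 3 value was -0.40 ± 0.17 (adjusted p = 0.069, and 0.042 without day 7 replicate 1).

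Of the 6 membrane proteins 3 were called higher and 1 lower at day 3, and 2 higher at day 7. All tested genes had 24.2% called higher and 33.1% lower at day 3, and 8.21% higher at day 7. Lamp1 and Lamp2, which line the lysosomal membrane, had -0.33 (95% interval -0.65 to -0.00) and 0.07 (-0.39 to 0.53) at day 3, and -0.28 (-0.61 to 0.04) and -0.07 (-0.53 to 0.38) at day 7. Laptm5, a lysosomal membrane protein of blood-derived cells, had the largest day 3 value of the membrane group (chr5:149797871-149797930, rn4). Laptm5 signal was 3.59, 3.4, 3.71 and 3.52 at day 3, 3.56, 3.36, 3.00 and 3.04 at day 7, and 2.69, 2.42, 2.53 and 3.00 in sham. Day 3 lay above sham throughout, and the lower day 7 arrays touched the top sham array. The rise was 1.86-fold at day 3 (0.90 ± 0.17, adjusted p = 0.0010) and 1.5-fold at day 7 (0.58 ± 0.17, adjusted p = 0.037). The day 7 call was lost in 11 of 24 alternatives, among them leaving out sham replicate 1, 2 or 3, day 3 replicate 1 or 4, or day 7 replicate 1 or 2 (adjusted p 0.051 to 0.10).

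Cd63, a tetraspanin of lysosomes and secreted vesicles, had 0.89 (adjusted p = 0.00033) at day 3 and 0.56 (adjusted p = 0.022) at day 7, the second lost without sham replicate 1 or day 7 replicate 1 or 3 (adjusted p 0.055 to 0.069). In all, the day 7 call of Cd63 was kept in 18 of 24 alternatives. Scarb2, the receptor that carries glucocerebrosidase to the lysosome, had 0.77 (adjusted p = 0.019) and 0.65 (adjusted p = 0.087). Its day 3 value was lost without sham replicate 1, sham replicate 2 or day 3 replicate 4 (adjusted p 0.051 to 0.059), and was -0.44 with normexp (adjusted p = 0.42). Normexp without spots below their local background also ended the day 3 call of Scarb2 (adjusted p = 0.68). Its day 7 value passed without sham replicate 3 (adjusted p = 0.022).

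Mcoln1, the calcium channel TRPML1 through which the lysosome signals to TFEB, was the one membrane protein of the list called lower at day 3 (chr12:2640194-2640253, rn4). Mcoln1 signal was 0.68, 0.34, 0.54 and 0.18 at day 3, 0.68, 0.81, 0.87 and 1.26 at day 7, and 0.92, 1.04, 0.72 and 0.94 in sham. The day 3 arrays lay just below sham, and day 7 covered the sham range. The fall was 1.39-fold at day 3 (-0.47 ± 0.16, adjusted p = 0.027), but -0.20 (adjusted p = 0.30) with total scaling and -0.37 (adjusted p = 0.069) with the authors' deposited table. Leaving out sham replicate 1, 2 or 4 or day 3 replicate 2 or 4 also ended it (adjusted p 0.050 to 0.084). The step of 0.47 between day 7 and day 3 (adjusted p = 0.047) was lost in 18 of 24 alternatives, including 9 of the 12 that leave out 1 array (all but sham replicate 3, day 3 replicate 1 and day 7 replicate 1; adjusted p 0.052 to 0.14).

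Of the 2 regulators, Grn was called higher at both days and Tfeb lower at day 3. Grn, progranulin, which is cleaved in the lysosome into granulins and is needed for normal lysosome function, rose 2.48-fold at day 3 (1.31 ± 0.18, adjusted p = 9.8e-05) and 2.14-fold at day 7 (1.1 ± 0.18, adjusted p = 0.0024), and both calls held in all 24 alternatives (chr10:91541880-91541939, rn4). Grn signal was 3.93, 3.64, 3.79 and 3.71 at day 3, 3.68, 3.43, 3.66 and 3.46 at day 7, and 2.74, 2.66, 1.93 and 2.5 in sham. Both injured groups lay well above sham and overlapped with each other. A second Grn probe, which shares part of its target, gave 1.32 at day 3 and 0.97 at day 7.

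Tfeb, the transcription factor itself, had signal of -1.88, -1.55, -1.47 and -1.57 at day 3, -0.60, -1.01, -0.87 and -0.88 at day 7, and -1.14, -1.30, -1.27 and -1.04 in sham (chr9:8665358-8665417, rn4). All 3 groups were separate, with day 3 lowest and day 7 highest. The day 3 value was -0.43 ± 0.14 (adjusted p = 0.022), the day 7 value 0.35 ± 0.14 (adjusted p = 0.11), and the step between day 7 and day 3 was 0.78 ± 0.14 (1.71-fold, adjusted p = 0.0031). The day 3 fall was -0.15 (adjusted p = 0.40) with total scaling, -0.27 (adjusted p = 0.14) with quantile normalization and -0.33 (adjusted p = 0.079) with the authors' deposited table, and it was lost without sham replicate 4 (adjusted p = 0.054) or without day 3 replicate 1 (adjusted p = 0.075). Total scaling gave a day 7 value of 0.59 (adjusted p = 0.017). The step between the days was lost with normexp alone. Of the 7 members with CACGTG in the promoter window, Ctsd and Cd63 were higher at both days, Glb1 and Mcoln1 were lower at day 3, and Lamp1, Gaa and Sgsh were not called against sham.

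Other genes of the lysosome were listed separately by function, and at day 3 the shares of the larger lists called higher or lower were mostly near or below the 24.2% and 33.1% of all tested genes. Of 25 other lysosomal hydrolases tested, 6 were called higher and 4 lower at day 3 (median log2 fold change 0.30) and 3 higher and 1 lower at day 7 (0.23). Those with the largest changes included these: Pla2g15, a lysosomal phospholipase, had 1.85 at day 3 (adjusted p = 0.00025) and 1.71 at day 7 (adjusted p = 0.0030), and Dnase2, the acid nuclease, 1.47 (adjusted p = 0.00022) and 1.13 (adjusted p = 0.0067). Hyal1, a hyaluronidase, had -2.06 at day 3 (adjusted p = 0.013). Of 17 other membrane proteins, 3 were called higher and 5 lower at day 3 (median -0.13), led by Laptm4b at 1.32 (adjusted p = 0.00090) and the sialic acid exporter Slc17a5 at -1.40 (adjusted p = 7.8e-05). Slc17a5 was also lower at day 7 (-1.43, adjusted p = 0.00078). Whether the 37 differ from these lists was not tested.

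For the 16 widely used subunits of the proton pump, 2 were called higher and 6 lower at day 3 (median -0.25). At day 7 limma called 0 of 16, 2 higher and 2 lower had an unadjusted p below 0.05, and 4 were higher at day 7 than at day 3. Atp6v1g1 had 0.76 at day 3 (adjusted p = 0.0014) and Atp6v1c1 -0.75 (adjusted p = 0.0014). In the sorting list of 16, 3 were called higher and 5 lower at day 3, among them the mannose 6-phosphate receptor M6pr at 0.85 (adjusted p = 0.00074) and the sorting receptor Sort1 at -1.0 (adjusted p = 0.0051). The 14 tested genes of the TFEB family and nutrient sensing gave 2 higher and 2 lower at day 3, among them Rragd, a Rag GTPase, at 1.02 (adjusted p = 0.0088) and 1.66 at day 7 (adjusted p = 0.0031), Fnip2, a folliculin partner, at -1.87 (adjusted p = 1.2e-05), and Mitf, a relative of Tfeb, at -1.02 (adjusted p = 0.0014). Of 15 autophagy genes 2 were higher and 4 lower at day 3, with Gabarapl1 at -1.21 (adjusted p = 2.3e-05) and then 1.15 higher at day 7 than at day 3 (adjusted p = 0.00030). Of the 4 cystatins, inhibitors of cysteine cathepsins, Cst6 had 1.57 (adjusted p = 0.0025) and Cstb 1.04 (adjusted p = 8.0e-05) at day 3.

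**Figure D3:**
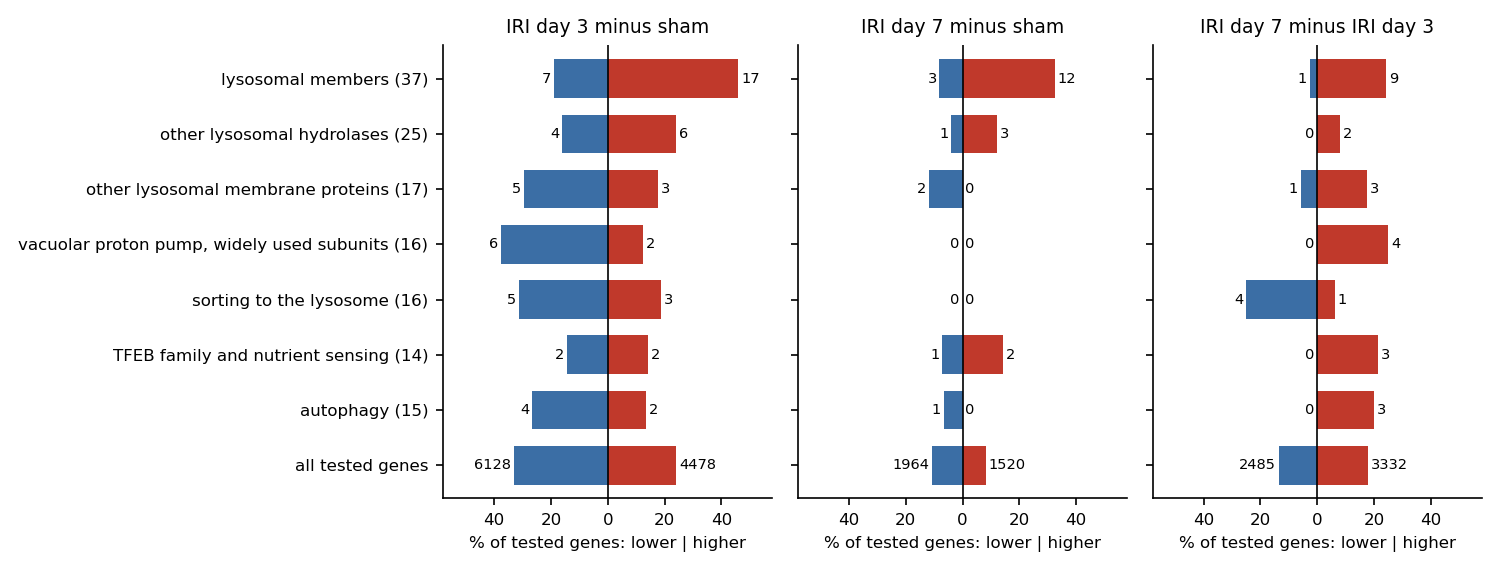
Percentage of tested genes called higher (red, right of 0) and lower (blue, left of 0) in the 3 comparisons, for the 37 lysosomal genes, 6 related lists and all tested genes; figures at the bar ends are gene counts. At day 3 the 37 genes have 17 higher and 7 lower, against 24.2% and 33.1% of all tested genes.

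Markers of other cell types also differed between the groups. Of 13 macrophage markers tested (15 had a probe), 10 were called higher at day 3 and 5 at day 7, with medians of 1.51 and 0.79, and the summed signal of the list was 57.0 to 76.3 times the 75th percentile at day 3, 40.4 to 55.6 at day 7 and 20.6 to 31 in sham. Cd163 and Mrc1 were well above background on at most 1 array of any group, and Cd68 had a log2 fold change of 2.7 (adjusted p = 0.0014) and Trem2 one of 3.82 (adjusted p = 5.1e-06) at day 3. The 8 fibroblast markers tested (9 had a probe) were all called higher at day 3 and 6 at day 7, with sums of 78.8 to 124 at day 3, 57.8 to 76.3 at day 7 and 16.5 to 28.4 in sham, where Postn and Lum were not above background. The part of macrophages or fibroblasts in the members' rises and falls was not tested.

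Tubule markers were mostly lower at day 3 than in sham and mostly higher at day 7 than at day 3. All 11 proximal tubule markers had a probe above background in each group, 9 were called lower at day 3, 3 lower at day 7 and 9 higher at day 7 than at day 3, with sums of 35.8 to 135 at day 3, 166 to 350 at day 7 and 452 to 483 in sham. The 8 distal nephron markers were all lower at day 3 and all higher at day 7 than at day 3, with sums of 7.59 to 13.3, 61.4 to 79.1 and, in sham, 76.1 to 101. Of the 6 endothelial markers 4 were lower at both days, with sums of 6.07 to 8.18 at day 3, 6.47 to 13.2 at day 7 and 15.4 to 19.8 in sham. Lymphocyte markers, 6 of 10 tested, had 2 called higher at day 3, with sums of 2.43 to 3.39, 2.23 to 3.32 and, in sham, 1.44 to 2.79, and B-cell genes Cd79b and Ms4a1 were not above background in any group. Of the 6 neutrophil markers only 2 could be tested, limma called 0 of them at either day (0 also at an unadjusted p below 0.05), the sums were 0.25 to 0.38, 0.28 to 0.49 and, in sham, 0.17 to 0.75, and Elane was not above background anywhere. All 6 tubular injury markers were higher at day 3 and 5 at day 7. The part of the tubule in the members' falls was not tested.

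**Figure D4:**
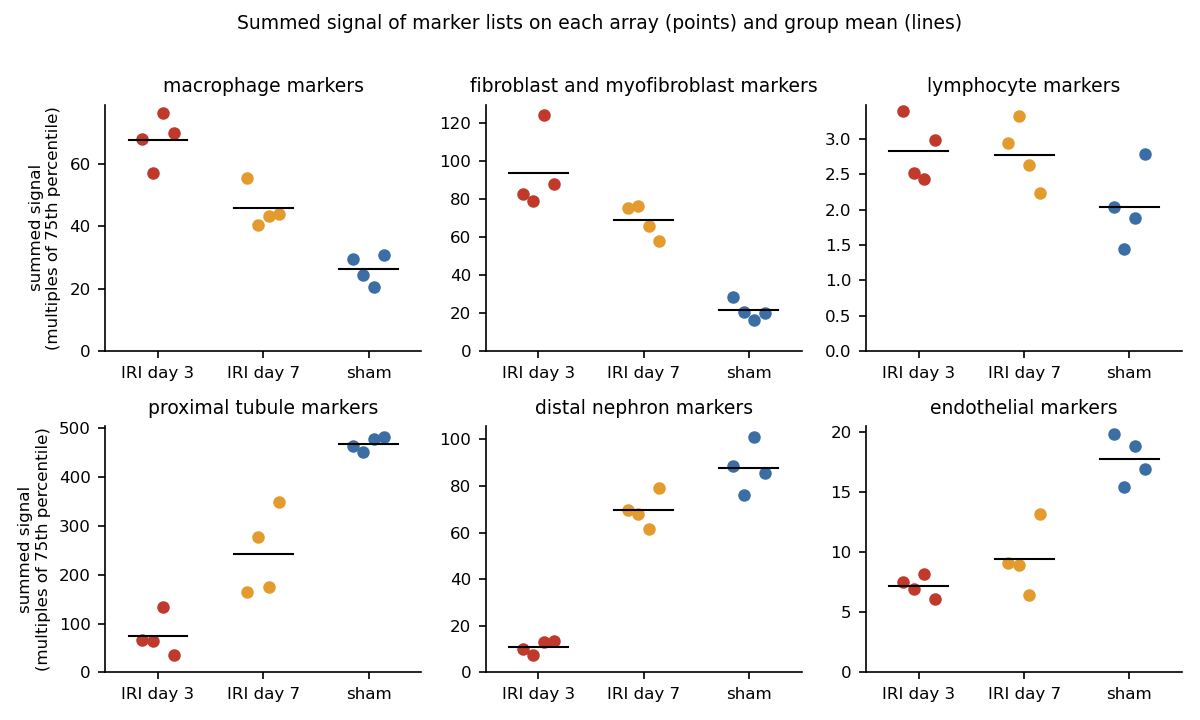
Summed signal of 6 marker lists (y axis, multiples of the array's 75th percentile, starting at 0) on each array of IRI day 3, IRI day 7 and sham; lines are group means. Macrophage and fibroblast sums are highest at day 3, and proximal tubule and distal nephron sums are lowest there.

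The 12 arrays lay on 3 slides of 4, each with all groups. Groups were fully separated in 21 of the 24 members called at day 3, 13 of 15 at day 7 and 7 of 10 between the days, which fixes the direction of those members within any slide, so the directions within slides are no further support. The median log2 fold change of the 37 members within slides was 0.37, 0.16 and 0.41 at day 3 and 0.35, 0.27 and 0.40 at day 7. With the slide as a block, the day 3 fall of Man2b1 (adjusted p = 0.069), the day 7 rise of Npc1 (0.066) and the steps between the days of Dpp7 (0.064) and Mcoln1 (0.072) were no longer called. With the scan batch as a block, Man2b1 (0.056), Npc1 (0.056) and Mcoln1 (0.057) lost the same calls.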

How the data were processed

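The 12 single-colour arrays, 1 for each rat left kidney sample, were analysed. Per the file headers, the deposited scanner intensities came from Agilent Feature Extraction 9.5.1.1, which had already subtracted background, and probe positions are on rn4. The authors' deposited value table holds log2 values of the same 30367 probes, centred on each probe's median; it served as an alternative, and how it was normalized is not stated here.

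Outlier-flagged spots were dropped, each array was divided by its 75th percentile, log2 was taken and replicate spots were averaged. A probe was tested if some group had it well above background on each of its 4 arrays (21071 probes); the brightest tested probe stood for each of 18509 genes. Names came from the RefSeq table of GRCr8, used for names only. limma 3.58.1 in R 4.3.3 fitted the 3 groups together, with Benjamini-Hochberg adjustment over all genes and a threshold of 0.05, and was tested on simulated data. The 24 alternatives changed the background correction, scaling, filter, probe choice, blocks or the samples fitted. The number of arrays limits the precision.

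The members and lists were chosen with earlier results of these data known. Per-array values are given by a rule: in each role the highest and lowest day 3 fold change, members called against the direction of most of their role, and members called at day 7 with at least a 2-fold change. From each related list, up to 4 called genes with the largest change were named. Replicate numbers did not pair the samples (correlations of deviations -0.331 to 0.142 over 12 pairs).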

Additional observations from a re-analysis of the deposited data

Results flagged for a closer look

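Of 111 sets of 4 arrays (37 genes in 3 groups), 6 held an array whose gap to the nearest of the others exceeded Dixon's 95% critical share of the set's range, and chance gives about 1 in 20. Ctsl was 5.27 on day 3 replicate 3, with the others at 5.06 to 5.09. Ctsz was -1.87 on day 7 replicate 1, with the others at -2.55 to -2.52. Gla was -2.17 on day 3 replicate 3, with the others at -1.79 to -1.74, and -2.79 on sham replicate 4, with the others at -2.01 to -1.85. Gusb was 0.87 on day 3 replicate 1, with the others at 0.18 to 0.22. Sgsh was -2.76 on day 3 replicate 1, with the others at -2.15 to -2.07.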

How the results depend on the processing

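Calls that held in all 24 alternatives were 10 of 17 rises and 2 of 7 falls at day 3, 3 of 12 rises and 0 of 3 falls at day 7, and 0 of 9 rises and 0 of 1 falls between the days. With normexp, 10 members were called higher and 2 lower at day 3 (median 0.16), 3 and 0 at day 7 (0.36), and 0 and 0 between the days (0.13); at an unadjusted p below 0.05 limma gave 11 and 1 at day 7 and 4 and 1 between the days. Ctsk (-0.15), Ctsz (-0.25) and Scarb2 (-0.44) then changed sign at day 3. Without spots below their local background, an alternative chosen after seeing the data, normexp gave a median log2 fold change of 0.17 at day 3 and of 0.25 at day 7; day 7 against day 3 it gave 0.081, with 5 members lower. Of all tested genes, normexp called 1643 higher and 1523 lower at day 3, against 4478 and 6128 in the reported fit, 74 and 17 at day 7, against 1520 and 1964, and 82 and 77 between the days, against 3332 and 2485.

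Total scaling called 2 lower at day 3 (median 0.57), 20 higher and 1 lower at day 7 (0.68), and 2 lower between the days; of all genes it called 6216 higher and 4396 lower at day 3 and 3239 and 913 at day 7. Quantile normalization gave 4 lower at day 3 and medians of 0.46 and, at day 7, 0.53, with 5171 genes higher and 5119 lower at day 3. The authors' table gave 2 lower at day 3 and medians of 0.39 and, at day 7, 0.52, with 5067 genes higher and 5500 lower at day 3. Requiring signal on all 12 arrays gave medians of 0.23 and, at day 7, 0.38, and 2 lower between the days. The mean over probes gave a median of -0.10 between the days. Fitting only the groups compared gave 7 higher at day 7 and 2 lower between the days. The replicate block gave 2 lower at day 3, 8 higher and 2 lower at day 7, and 5 higher between the days; the numbers do not pair the samples. The cause of these changes was not tested.

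Leaving out 1 array at a time gave 15 to 17 higher and 3 to 9 lower at day 3 (median 0.24 to 0.36), 8 to 12 and 2 to 4 at day 7 (0.40 to 0.55), and 4 to 9 and 1 to 4 between the days (-0.07 to 0.03). Dim signal limits Ctsk, Ctsz and Sgsh, whose probes passed the filter only through the injured groups.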
